A study of Mus musculus and Homo sapiens with 12 samples.

Results

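Human ERVK elements were described in K-562 cells, a line from a patient with chronic myeloid leukaemia, with and without TET2, a dioxygenase that oxidises 5-methylcytosine. ERVK elements were the rows of the repeat table whose class was LTR and whose family was ERVK, and there were 9447 of them among 3919868 repeat elements in all. Of these members 1179 had a count in at least 1 library. The measurement was m5C meRIP-seq of chromatin-associated RNA (caRNA), in which RNA that stays with chromatin is fragmented, precipitated with an antibody against 5-methylcytosine (m5C) and sequenced. The groups were 3 wild-type libraries (WT1, WT2 and WT3) and 3 TET2 KO libraries (KO1, KO2 and KO3), all of them the precipitated fraction. The labels call the cells lymphoblasts from bone marrow (the table holds repeats only, so neither the line nor the loss of TET2 could be checked against genes), and those of the KO libraries write the line as K563, which was read as a typing error. The cells were given to the study by another group, and the sources used here do not say whether the KO was 1 clone. The study calls its replicates biological, while the labels do not say whether the libraries came from separate cultures, so each p-value measures the spread between these libraries only.

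ERVK is the family of the betaretrovirus-like endogenous retroviruses of the human genome, called HML for their likeness to the mouse mammary tumour virus. A complete provirus holds an internal part with the viral genes between a pair of long terminal repeats (LTRs), and recombination between the LTRs has left most copies as solitary LTRs. The LTR carries the promoter and the signal for the end of the transcript. HERVK-int with the LTR5 subfamilies makes up HML-2, the group with the most recent insertions in the human genome, whereas HERVK9-int pairs with MER9 LTRs, HERVK11-int with MER11A, MER11B and MER11C, and HERVK22-int with LTR22 subfamilies. TET2 acts on m5C in DNA and in RNA, and the study asked how caRNA of repeats in the m5C-bound fraction changed without it. The table held no input RNA and no spike-in, so that every difference below joins the amount of an RNA with how much of it the antibody bound, relative to all repeats in a library. Fewer cells with an RNA and less RNA per cell cannot be told apart either.

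The members covered 42 subfamilies, and each of these had some count. Internal parts named HERVK made up 1196 elements of 10 subfamilies, of which 281 elements had counts. The LTR5 group held 1434 elements with 342 counted, the MER11 group 2599 with 242, the MER9 group 1273 with 63, and the remaining 20 LTR subfamilies 2945 with 251. Library totals over the classes DNA, LINE, LTR and SINE ranged from 498145 to 649905 counts in WT and from 715023 to 827341 in KO. ERVK elements held 5955, 4952 and 4086 of these counts in WT and 2039, 2907 and 3661 in KO. Depth was thus higher in every KO library, while the ERVK count was lower in every KO library, and depth and genotype cannot be told apart. Most ERVK elements were counted in a single library (847 of 1179), so the libraries behind a result are named with it.

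A single element held 51.3% of all ERVK counts. It is a MER11B LTR of 1277 bp on the minus strand of hg38 at chr3:15738159-15739435. It lies inside an intron of ANKRD28, which encodes an ankyrin-repeat subunit of a protein phosphatase complex. This element ranked 4 by mean count among all elements of the classes DNA, LINE, LTR and SINE. GENCODE release 44 places a whole pseudogene of 7SL RNA, RN7SL4P, inside it on the plus strand, at bases 357 to 651 of the element counted along the chromosome. 7SL RNA is the RNA of the signal recognition particle, is transcribed by RNA polymerase III and is among the most abundant RNAs of the cell. RN7SL4P lies at chr3:15738515-15738809. The junction at which its 7SL part ends is shown because it sets what a read of this element can be: 60 bases of the plus strand at chr3:15738717-15738776 (hg38), with the LTR bases in capitals and the 7SL part in lower case.
Right junction: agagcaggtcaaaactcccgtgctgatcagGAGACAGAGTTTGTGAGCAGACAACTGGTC

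The first 232 bases of RN7SL4P aligned with 7SL RNA without a gap. They matched RN7SL1 at 226 positions (97.4%), RN7SL2 at 229 (98.7%) and RN7SL3 at 223 (96.1%). The last 63 bases of the annotated pseudogene did not align with RN7SL1, and 20-base windows of that end were found in 67 of the other 546 MER11B elements. So by sequence the 7SL part of the element ends at base 588 and LTR sequence resumes inside the annotated pseudogene. Of the 246 windows of 50 bases in RN7SL4P, 143 (58.1%) were found letter for letter in RN7SL1, RN7SL2 or RN7SL3, and a read of such a window cannot be assigned to 1 of these genes by its sequence. In the element 183 windows of 20 bases matched one of these RNAs, against at most 44 in any other ERVK element. Of the 9447 members 6 overlapped an annotated small RNA gene, and the only other one with counts was a MER11C on chromosome 6 with 0.7 counts in all.

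The MER11B element had 4379, 2089 and 1776 counts in the WT libraries, while the KO libraries had 1268, 1301 and 1305. As CPM, that is scaled to the total of the library, these values were 6739, 4193 and 3170 in WT and 1543, 1820 and 1578 in KO, with means of 4700 ± 1838 and 1647 ± 151 (SD, n = 3). Each WT library was higher than each KO library, and the spread within WT was far wider than within KO. The table gives 1 count for the whole element, so whether its reads lay in the 7SL part or in the LTR was not tested. The neighbouring repeats did not share its level. The other 233 repeats in ANKRD28, of which 34 had counts, summed to 9.33 to 39.6 counts per library, and the 19 other repeats within 10000 bp on each side summed to 0 to 27.6. Together, the 232 other elements of any family that hold a whole RN7SL gene had 49.4, 55.3 and 62.7 counts in WT against 48.9, 72.7 and 53.1 in KO. These values overlapped between the groups.

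**Figure D1:**
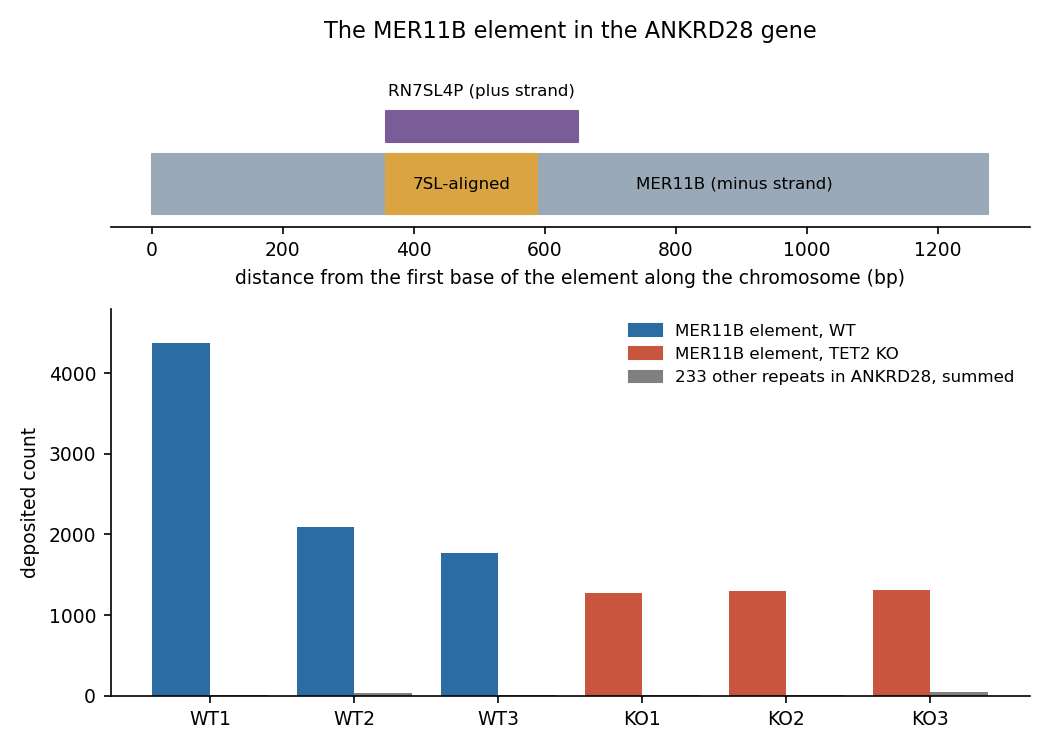
The upper panel draws the MER11B element to scale in bp from its first base along the chromosome, with the annotated RN7SL4P above it and the stretch that aligned with 7SL RNA in yellow. The lower panel gives deposited counts per library for the element (blue WT, red TET2 KO) and for the 233 other repeats of ANKRD28 summed (grey), which reach at most 39.6 counts.

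When each element was tested on its own, with counts normalised over all elements by TMM, the MER11B element was not called. Its log2 change, KO over WT, was -0.77 ± 0.51 (SE) with an adjusted p of 0.771 in edgeR. On that scale the groups overlapped, with normalised CPM of 12665, 7656 and 4887 in WT and 4863, 5693 and 4275 in KO. Scaled by library totals alone, the log2 change was -1.74 with an unadjusted p of 0.0056 and an adjusted p of 0.173 in edgeR. The 2 scales differ for all elements alike: the median log2 change of the 3127 elements tested was 0.13 with TMM and -0.84 with library totals. Without WT1 the change was -0.37. Only 2 ERVK elements had enough counts for this test and none was called, against 0.0959% of all elements tested. No ERVK element had an unadjusted p under 0.05 here.

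ERVK as a whole took a smaller share of every KO library than of any WT library. The share was 0.916%, 0.994% and 0.729% in WT and 0.248%, 0.407% and 0.443% in KO, with means of 0.880% ± 0.136 and 0.366% ± 0.103 (SD, n = 3). The difference of mean log2 shares was -1.30, with p = 0.1 in an exact two-sided permutation test, which is the smallest p that 3 against 3 libraries allow. Its size depended on a few elements with very high counts. Without 3 elements of the subfamily FordPrefect the mean shares were 0.965% in WT and 0.477% in KO. The log2 difference was then -1.05 (exact permutation p = 0.1). Without the 10 highest elements of any family, the MER11B element among them, the groups overlapped (log2 difference -0.84, exact permutation p = 0.3). Of the counts of LTR elements alone, ERVK held 7.30% ± 0.917 in WT and 2.85% ± 0.617 in KO (log2 difference -1.38, exact permutation p = 0.1). The other LTR families overlapped between the groups in the same libraries: ERV1 held 34.5% ± 3.67 and 34.8% ± 3.98 of LTR counts, ERVL 14.4% ± 4.63 and 15.0% ± 3.29, and ERVL-MaLR 41.7% ± 5.82 and 45.1% ± 2.46 in WT and KO.

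Without the MER11B element the ERVK share was 0.244%, 0.577% and 0.414% in WT and 0.0939%, 0.225% and 0.285% in KO. The means were 0.412% ± 0.167 and 0.201% ± 0.0978, the difference of mean log2 shares was -1.09 and the exact permutation p was 0.2. WT1 then lay below KO3, so the groups overlapped. Within LTR counts the remaining ERVK elements held 2.17%, 4.73% and 3.63% in WT and 0.818%, 1.79% and 2.09% in KO (log2 difference -1.20, exact permutation p = 0.1). These groups did not overlap, although WT1 and KO3 were close.

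**Figure D2:**
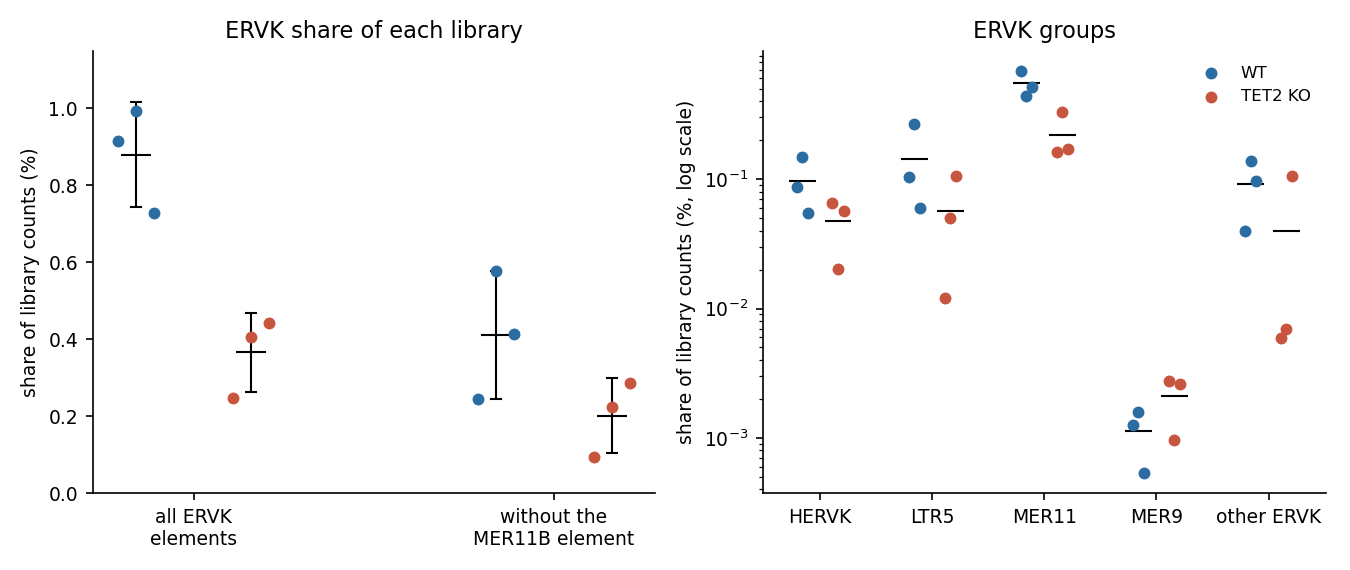
Share of library counts in percent, with a point for each library (blue WT, red TET2 KO). In the left panel bars are the mean and SD of 3 libraries, and leaving out the MER11B element lowers the WT mean from 0.880% to 0.412%; the right panel, on a log scale with lines at the means, shows the 5 ERVK groups, of which MER11 did not overlap between the groups of libraries.

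Of the 5 groups, MER11 was the one whose WT and KO libraries did not overlap, and without the MER11B element they did. MER11 elements held 0.685%, 0.441% and 0.518% of WT libraries and 0.162%, 0.329% and 0.171% of KO libraries (log2 difference -1.37, exact permutation p = 0.1, 0.3 after adjustment over the 5 groups). Without the element the values were 0.0113%, 0.0218% and 0.201% in WT and 0.00821%, 0.147% and 0.0133% in KO (log2 difference -0.54, exact permutation p = 0.6). WT3 and KO2 then stood apart from the other 4 libraries. The LTR5 group held 0.104%, 0.266% and 0.060% in WT and 0.0121%, 0.0501% and 0.106% in KO (log2 difference -1.56, exact permutation p = 0.3). HERVK internal parts held 0.0864%, 0.147% and 0.0543% against 0.0648%, 0.0201% and 0.0565% (log2 difference -1.08, exact permutation p = 0.3). Both groups overlapped between WT and KO. MER9 LTRs, the partners of HERVK9-int, were nearly without signal, with 3 to 8.18 counts in a WT library and 6.85 to 22.7 in a KO library. The remaining LTR subfamilies held 0.0400%, 0.138% and 0.0968% in WT and 0.00591%, 0.00689% and 0.106% in KO (log2 difference -2.32, exact permutation p = 0.3), and KO3 alone was at the level of WT.

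In a count model over all subfamilies with ERVK summed into these 5 groups, none of the 5 was called, against 1.06% of the 567 features tested. The log2 changes, KO over WT, were -1.41 ± 0.43 (SE) for MER11, -1.45 ± 0.98 for LTR5, -1.13 ± 0.86 for HERVK, -1.35 ± 1.26 for the remaining LTRs and 0.83 ± 0.64 for MER9. The lowest adjusted p was that of MER11, 0.222 in edgeR, with 0.0102 unadjusted. The DESeq2 Wald test called the MER11 group with an adjusted p of 0.0025, where it called 11.9% of the 504 features to which it gave an adjusted p. Without the MER11B element the log2 change of MER11 was -0.70 ± 1.46, with an adjusted p of 0.831 in edgeR.

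Of the 42 ERVK subfamilies, 11 had enough counts to be tested singly, and the 31 others held 6.70% of ERVK counts, from 1 to 388.3 counts each. The filter keeps a subfamily when enough libraries have counts in either group, so these 11 do not stand for all members. None of the 11 was called by edgeR, against 1.05% of the 573 subfamilies tested. DESeq2 called 2 of them, LTR13A and MER11B, with adjusted p-values of 1.54e-05 and 2.00e-04. It gave no p to LTR13, LTR5B, MER11A and MER11C, so these could not be called. Of the 507 subfamilies to which DESeq2 gave an adjusted p, it called 12.0%. With edgeR 4 of the 11 had an unadjusted p under 0.05, all of them lower in KO, where 6.11% of all subfamilies were lower at that level. The median log2 change was -1.55 over the 11 subfamilies and 0.03 over all subfamilies tested. For 2 of the 11, LTR13A and MER11B, no KO library reached the lowest WT library in normalised counts, against 6.63% of all subfamilies. LTR13A passed the filter through its WT libraries, so its separation and its DESeq2 call are a description only.

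LTR13A, the LTR of an HML-4 provirus, had normalised CPM of 79.6, 795 and 1043 in WT and 2.31, 20.2 and 10.97 in KO. The WT mean was 639 ± 500 and the KO mean 11.2 ± 8.93 (SD, n = 3), and the log2 change was -5.82 ± 1.50 (SE) with an adjusted p of 0.152 in edgeR. WT1 was well below the other WT libraries and still above each KO library. The deposited counts of LTR13A were 52.6, 382 and 509 in WT and 2.5, 15.15 and 8.53 in KO, so its KO level rested on few reads. MER11B, nearly all of it the element described above, had 6584, 4364 and 3654 in WT and 1469, 1758 and 1598 in KO, a log2 change of -1.60 ± 0.43 with an adjusted p of 0.152 in edgeR. The 28 other MER11B elements with counts had 35.0 counts in all. The separation of MER11B here is on the scale normalised over subfamilies. On the TMM scale over single elements, given above, the groups overlapped for its main element (log2 change -0.77).

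The next subfamilies rested on 1 library each. LTR5B, an older HML-2 LTR, had 1160 in WT2 and 12.0 to 28.9 in every other library, and its log2 change of -4.14 became 0.41 without WT2. MER11C had 2278 in WT3 and 26.9 to 100.0 elsewhere, and its log2 change of -3.83 became -0.09 without WT3. MER11A had 1369 in KO2 and 6.15 to 160.3 elsewhere, and its log2 change of 2.90 became -1.31 without KO2. LTR13 had 883 in KO3, 234 and 229 in WT1 and WT2 and 13.9 to 20.5 in the other libraries, and its log2 change of 0.91 became -3.40 without KO3. HERVK9-int, the HML-3 internal part, had 1389 in WT2 and 37.0 to 165.8 elsewhere (log2 change -2.54, and -0.15 without WT2). In each of these a single library set the size of the change, and in LTR5B, MER11A and LTR13 also its sign.

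HML-2 elements gave the widest signal by number of elements. LTR5_Hs, the youngest LTR of the group, had counts in 258 of its 680 elements, more than any other ERVK subfamily. Its normalised CPM values were 997, 1595 and 653 in WT and 78.5, 71.3 and 956 in KO, so KO1 and KO2 were low and KO3 lay within the WT range (log2 change -1.55 ± 1.17, adjusted p 0.556 in edgeR). HERVK-int, which encodes the HML-2 proteins, had 593, 20.8 and 22.5 in WT and 52.0, 18.8 and 263 in KO, where the log2 change was -0.93 ± 1.54, and 2.37 without WT1. HERVK22-int of HML-5 had 28.5, 64.6 and 26.6 in WT against 229.8, 41.7 and 29.3 in KO, with a log2 change of 1.33, and HERVK11-int of HML-8 had 18.0, 14.6 and 14.3 in WT against 18.5, 9.41 and 61.0 in KO, with a log2 change of 0.91. In both of these 1 KO library stood above the rest, KO1 for HERVK22-int and KO3 for HERVK11-int.

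**Figure D3:**
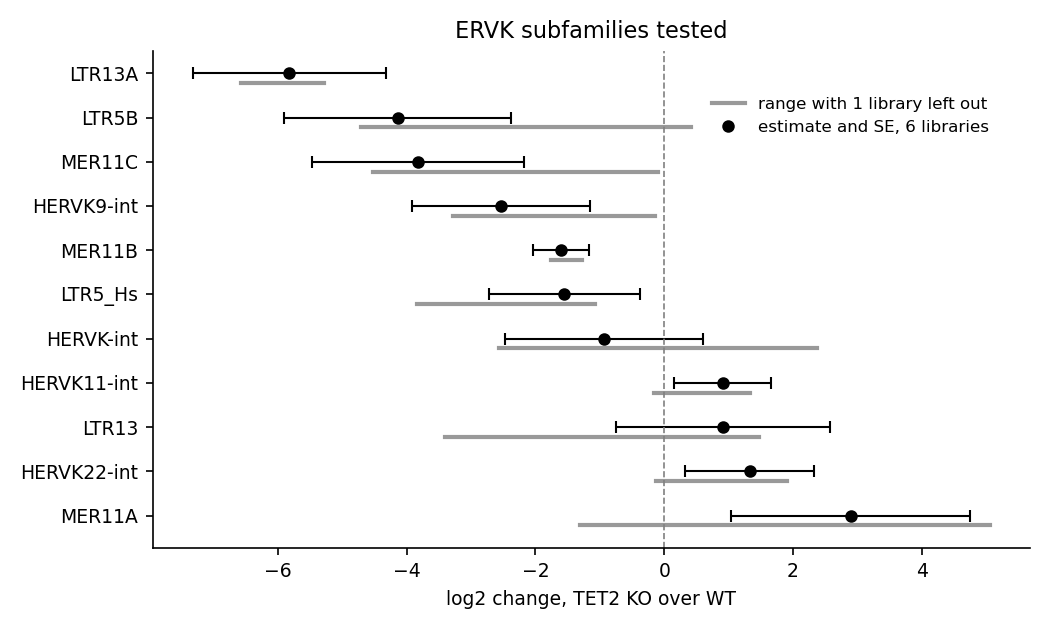
Log2 change, TET2 KO over WT, of the 11 ERVK subfamilies tested, with the SE as bars. Grey lines span the estimates when each of the 6 libraries was left out in turn. LTR13A and MER11B keep a narrow span below 0, whereas the lines of LTR5B, HERVK-int, HERVK11-int, LTR13, HERVK22-int and MER11A cross 0.

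At the level of single copies, 847 of the 1179 ERVK elements with counts were counted in 1 library only. Only 14 of the counted elements had counts in all 6 libraries. A library had counts in 239 to 312 ERVK elements in WT and in 246 to 373 in KO. Elements seen in WT libraries only numbered 429, in KO libraries only 493 and in both 257. The same numbers were not computed over all repeat elements, and every KO library was deeper than every WT library. They are therefore no measure of ERVK against other repeats or of genotype. Of the 55 ERVK elements with at least 50 counts, 47 (85.5%) had at least 90% of them in a single library, where this held for 48.7% of the 12280 elements of any class with as many counts. Such elements held 78.2% of the counts of WT2, 75.5% of WT3 and 79.7% of KO2 that lay outside the MER11B element, but 15.3%, 21.9% and 28.1% in WT1, KO1 and KO3.

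From the 40 elements with most counts, 10 sets of near-identical copies were chosen and compared by sequence. They held 27 elements with 42.9% of the ERVK counts outside the MER11B element, and each set had over 90% of its counts in 1 library. The sets are not a full list. LTR5A elements at chr8:7742011-7743042, chr8:7757307-7758338 and chr8:7764955-7765987 had 73.4, 72.3 and 73.4 counts in KO2 and none elsewhere, and their sequences were not compared. A MER11A fragment of 421 bp stands in 4 copies in tandem on chromosome 1, at chr1:161445602-161446022, chr1:161452982-161453402, chr1:161460393-161460813 and chr1:161467773-161468193 in an intron of a long gene without a symbol, and the copies were identical in sequence. They had 137, 121, 129 and 262 counts in KO2 and at most 0.52 in any other library. No read within them can be placed in 1 copy by its sequence.

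The other MER11A pair, on chromosome 9 at chr9:40183849-40184894 and chr9:66191349-66192394, had 203 and 149 counts in KO2 and none elsewhere, with 99.6% identity. A trio of LTR5_Hs copies on chromosome 22, at chr22:18347506-18348467, chr22:18513933-18514894 and chr22:18771254-18772215, had 126, 201 and 254 counts in WT2 and none elsewhere, and were 99.6% to 99.7% identical. The first of these lies 1475 bp and the others 1450 bp from the nearest gene. A HERVK9-int set of 3 copies, of which 1 is at chr22:12073837-12077190 and the others lie on random contigs of chromosomes 4 and 14, had 607 counts in WT2 and none elsewhere. A pair of MER11C copies on chromosome 8 had 1059 counts in WT3 and 1 in KO3. The LTR5B copy in CSF2RA at chrX:1292288-1293203 had 251 counts in WT2, and its identical pseudoautosomal counterpart 123. An identical LTR13A pair, on chromosome 16 and on a random contig of it, had 387 counts in WT3. Another, on chromosome 1 and on an alternate contig of it, had 372 counts in WT2. So the WT counts of LTR13A came from different copies in different libraries. A set of 5 LTR13 copies in CCDC200 on chromosome 17 had 338 counts in KO3 and at most 0.73 in any other library. An HML-2 pair of internal parts in tandem, HERVK-int at chr7:4583489-4590929 and chr7:4591993-4599432, had 187 counts in WT1 and 18.0 in KO3, with 99.9% identity.

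The ERVK elements counted in every library were few, and outside the MER11B element they had low counts. HERVK-int at chr3:101692862-101699951, a near-complete internal part that overlaps PDCL3P4, had 25.2, 1 and 6 counts in WT against 4, 1 and 28.9 in KO. HERVK22-int at chr1:158948055-158959148, in an intron of PYHIN1, had 8.83, 28.7 and 1.25 in WT and 8.33, 5.90 and 6.03 in KO. Neither differed between the groups beyond the spread of its libraries. HERVK9-int at chr7:56145384-56152938 had 10.1, 4.53 and 5.07 in WT and 2.75, 4.40 and 2.15 in KO. LTR5_Hs at chr14:55024550-55025503, in an intron of WDHD1, had 8.10, 1.82 and 1.90 in WT and 0.27, 0.10 and 2.48 in KO. Both had at most 10.1 counts in a library, a level that a few reads would move.

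The other ERVK element tested singly was the LTR5_Hs at chr1:75382491-75383458, in an intron of SLC44A5. It had 14.1, 8.50 and 16.9 counts in WT against 0.25, 0 and 8.65 in KO. As CPM of the library the WT mean was 23.0 ± 6.65 and the KO mean 3.59 ± 5.95 (SD, n = 3), and on this scale every KO library was lower than every WT library. On the TMM scale of the test the groups overlapped, with CPM of 40.5, 29.3 and 46.8 in WT and 0, 0 and 29.5 in KO. The log2 change was -1.87 ± 1.24 (SE) with an adjusted p of 0.771 in edgeR, and it was -6.52 without KO3. The element passed the filter on low counts through its WT libraries, so its lower KO level is a description only. Over the whole LTR it was 87.3% identical to the LTR5_Hs copy of chromosome 22 that had 254 counts in WT2.

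A further set held only elements counted in at least 2 libraries, whatever their genotype, and shares were taken of the counts of these elements alone. The LTR5 group held 0.122%, 0.0810% and 0.0595% of such counts in WT and 0.00807%, 0.00707% and 0.0578% in KO. The log2 difference was -2.49 with an exact permutation p of 0.1, and 0.2 after adjustment over the groups. The groups did not overlap, though KO3 lay just below WT3, and the count model gave a log2 change of -1.79 with an adjusted p of 0.476 in edgeR. In the same set the log2 change of LTR13A was -4.60 and that of HERVK9-int 0.17.

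By position, 14.8% of the counted ERVK elements that lie on annotated chromosomes overlapped an exon, 43.8% lay in introns and 41.3% between genes, against 7.66%, 41.3% and 51.0% of all ERVK elements there. Exonic elements other than the MER11B element held 13.4% of the remaining counts, intronic elements 50.3% and intergenic elements 36.3%. Alternate, random and unplaced contigs held 682 members, with 8.36% of ERVK counts. In each of the 11 subfamilies tested, counted elements had a higher median number of CpG dinucleotides per 100 bases than elements with no count. It was 1.86 against 1.60 in LTR5_Hs, 2.78 against 2.33 in LTR13 and 1.93 against 1.60 in MER11C, but only 2.17 against 2.16 in LTR13A. Cytosine content differed less, at 23.7% of bases in counted and 23.2% in uncounted ERVK elements. Counted internal parts were longer, with a median of 7149 bp against 1562.5 bp for HERVK-int. These values describe the copies, which are not independent, and no test was made.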

How the data were processed

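Chromatin-associated RNA of K-562 cells was precipitated with an m5C antibody, and libraries were made with a stranded low-input kit. Per the submitters' notes and the study's methods, reads were trimmed (Trimmomatic 0.39), aligned to hg38 together with spike-ins (HISAT2 2.1.0), deduplicated (Picard) and assigned to repeat elements with featureCounts by the authors. The deposited values are estimated counts per element: whole numbers made up 32.4% of the non-zero ERVK values, 38.3% lay under 1, and the options that made them fractional were not given in the sources used here. Reads of near-identical copies may therefore be divided between them. The mouse table was not used here.

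Counts were summed per subfamily, or kept per element, over the DNA, LINE, LTR and SINE classes and rounded. After filterByExpr and TMM normalisation, all features of the table were fitted in edgeR 4.0.16 (quasi-likelihood, two-sided, Benjamini-Hochberg adjustment), and those with an adjusted p under 0.05 were called. The SE of a log2 change was derived from the test, as its absolute value over the square root of the F statistic. The fit was tested on simulated data. Shares of library counts were compared by an exact two-sided permutation test over the 20 assignments of 6 libraries. Alternatives were DESeq2 1.42.0, other scalings and filters, removal of elements with most counts or of single-library elements, and leaving out each library. Named elements were the 10 with the highest mean count and those tested singly; other elements, among them the sets of copies and those counted in all libraries, were chosen after their values were seen. The members and lists were chosen with earlier results of these data known. Genes came from GENCODE release 44 (the authors used 29), sequences from hg38 and GENCODE transcripts, and alignments from Biopython 1.88. Some sequences are not reported here. Other software was R 4.3.3, Python 3.11.15, pandas 2.3.3, NumPy 2.4.6, SciPy 1.17.1 and matplotlib 3.10.9.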

Additional observations from a re-analysis of the deposited data

How the results depend on the processing

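No ERVK subfamily, group or element was called by edgeR under any alternative (0 of each). An unadjusted p under 0.05 was reached by 4 of 11 subfamilies in the reported fit and by 2 to 9 subfamilies under the alternatives (2 of 11 with the replicate block, 9 of 42 with no filter). The DESeq2 Wald test called 2 subfamilies and 1 group, and no single element. The ERVK shares, of the family and its 5 groups, kept their direction wherever they could be computed. The ERVK share of library counts differed least without the 10 highest elements (log2 difference -0.84). With 1 library left out the log2 difference ranged from -1.46 to -1.04 for the ERVK share of library counts, from -1.48 to -1.18 for its share of LTR counts, from -1.43 to -0.55 for HERVK, from -2.27 to -0.70 for LTR5, from -1.69 to -1.18 for MER11, from 0.43 to 1.39 for MER9 and from -3.67 to -1.58 for the remaining LTRs, and 0 features were called each time. Log2 changes changed sign for HERVK-int (from -2.57 to 2.37, the latter without WT1), LTR5B (from -4.71 to 0.41, without WT2), HERVK22-int (from -0.12, without KO1, to 1.91), MER11A (from -1.31, without KO2, to 5.06), HERVK11-int (from -0.16, without KO3, to 1.33) and LTR13 (from -3.40, without KO3, to 1.48). Among elements counted in at least 2 libraries the sign turned for HERVK22-int (-0.64), HERVK9-int (0.17) and the remaining LTRs (0.53), and MER9 gave no share because a library was at 0. With the replicate block LTR13 turned to -2.30 and no other call or sign changed. The ERVK share difference then stayed at -1.30, with p = 0.25 in an exact sign-flip test of libraries paired by number. That is the smallest p this test allows. Libraries with the same number did not deviate together (correlations of -0.0524, 0.0422 and -0.0920), so the block is no pairing. Of 312 values of named features under alternatives 299 kept direction and call. Among these 299, the DESeq2 values of LTR13, LTR5B, MER11A and MER11C kept direction only, since DESeq2 gave them no p. Depth limits what can be called, since 811 ERVK elements had under 3 counts in all libraries together.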
